A study of Mus musculus with 8 samples.

Results

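The insulin-like growth factor (IGF) family was described here through 10 genes of the 24062 in the deposited gene counts. They were listed by name, as the ligands Igf1 and Igf2, the receptors Igf1r and Igf2r, and the binding proteins Igfbp2, Igfbp3, Igfbp4, Igfbp5, Igfbp6 and Igfbp7. All 10 passed the filter on low counts and were among the 15789 genes tested. PolyA RNA was sequenced from the whole cerebellum of single mouse pups at postnatal day 2, in 4 mutants of genotype Math1-Cre; Sufu flox/- and in 4 control littermates, which the series text gives as Sufu flox/+. Sufu encodes an inhibitor of Hedgehog signalling that holds Gli transcription factors back. Mutants thus carried a Sufu null allele in every cell, and could lose the floxed allele in cells where Math1-Cre was active, those of the granule cell lineage and other rhombic lip derivatives. One parent was Math1 mgfp/mgfp, so pups of either group were bred to carry a Math1 mgfp allele, and the strain is given as C57BL/6(mixed). The labels do not state the Cre status of control pups. Sample titles also hold a letter, P or R, shared by 2 mutants and 2 controls each, whose meaning is not stated.

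IGF1 and IGF2 are secreted peptides that act through IGF1R, a receptor tyrosine kinase, whose signal passes by adaptors such as IRS1 to the PI3 kinase and AKT cascade. IGF2R binds IGF2 without such a kinase and carries it to the lysosome, and the IGFBP proteins hold IGFs outside the cell and either shield or deliver them. In most mouse tissues, though not in all, Igf2 is transcribed mainly from the paternal allele, while H19, its neighbour, and Igf2r are transcribed mainly from the maternal allele. In the newborn cerebellum IGFs promote division and survival of granule cell precursors alongside Sonic hedgehog, and Igf2 is known to be abundant in the choroid plexus and meninges.

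Each library held 21479565 to 26638284 reads counted in genes. Sufu, the targeted gene, was at 31.7 to 39.8 CPM, counts scaled to a common library total, in mutants and at 47.7 to 60.7 CPM in controls, without overlap. By edgeR's quasi-likelihood test, 0 of 15789 genes had a Benjamini-Hochberg adjusted p under 0.05, or 0%, and 1995 had an unadjusted p under 0.05, or 12.6%. DESeq2 called 52 of 16062, or 0.324%. Hindbrain Hox genes, which mark tissue behind the cerebellum, summed to 6.13 CPM in mutant 4, to 61.5 to 160 CPM in mutants 1 to 3 and to 112 to 191 CPM in controls. Granule cell precursor markers summed to 1275, 1607, 1805 and 2418 CPM in mutants 1 to 4 and to 1224 to 1446 CPM in controls. Mutant 4 thus stood apart in both of these lists. In whole tissue, fewer cells of a type and less RNA per cell cannot be told apart.

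The receptors were the family members whose levels did not overlap between the groups, with the lowest mutant above the highest control for Igf1r and for Igf2r. The ligands overlapped, and so did all 6 binding proteins. None of the 10 passed the test over all genes (smallest edgeR adjusted p = 0.381), and DESeq2 called 0 of them (smallest adjusted p = 0.111). At an unadjusted p under 0.05, edgeR gave 2 of 10 members, both receptors and both higher. Of all genes tested 12.6% had such a p in either direction, and 6.94% were higher at that p. Groups that do not overlap with mutants higher were found for 3.60% of all genes tested, and with mutants lower for 2.96%; of the family they were found for 2 and 0 members. The median log2 fold change, mutant over control, was 0.02 over the 10 members and 0.01 over all genes tested.

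**Figure D1:**
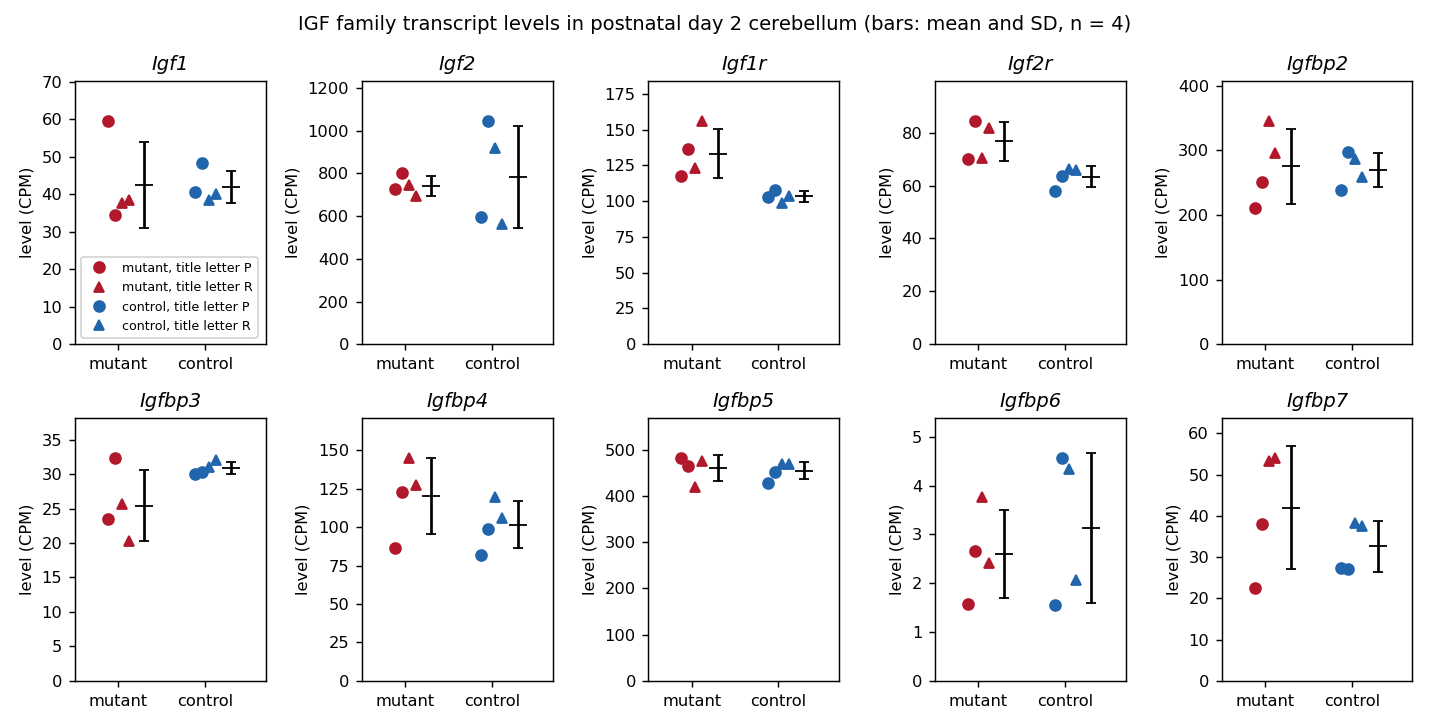
Level of each family member in CPM (y axis, from 0) in the 4 mutant and 4 control libraries, with circles for title letter P and triangles for R and bars for the mean and SD of each group (n = 4). Igf1r and Igf2r have every mutant point above every control point, and the other 8 members overlap.

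Among the ligands, Igf2, the growth factor of fetal and perinatal tissue, had a wide spread among controls and a narrow one among mutants. It was at 726, 804, 744 and 694 CPM in mutants 1 to 4 and at 597, 1045, 921 and 561 CPM in controls 1 to 4. All 4 mutants lay between the low pair of controls, 1 and 4, and the high pair, 2 and 3. The means were 742 ± 46.1 CPM in mutants and 781 ± 239 CPM in controls (SD, n = 4), a log2 fold change of -0.07 with a 95% interval of -0.50 to 0.35 (edgeR adjusted p = 0.881). The interval thus leaves room for changes of up to 1.27-fold higher or to 0.708 of the control level.

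The spread of Igf2 in controls went with that of meningeal markers. The 12 markers of meningeal fibroblasts, all of them detected in every library, summed to 1206, 1338, 1629 and 1388 CPM in mutants and to 1123, 2165.6, 1998 and 1089.8 CPM in controls, where controls 2 and 3 were again the high pair. The 12 choroid plexus markers, also all detected, summed to 3927 to 6594 CPM in mutants and to 1582 to 3622 CPM in controls, without overlap. The part of either tissue in the Igf2 levels was not tested. Igf2os, a transcript antisense to Igf2, was at 3.41 to 3.83 CPM in mutants and at 2.32 to 4.62 CPM in controls. Whether counting used strand is not stated, so reads of the overlapping stretch cannot be told apart.

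H19, the maternally expressed non-coding RNA next to Igf2, stood apart from Igf2 in its pattern. H19 was at 197, 162, 208 and 154 CPM in mutants 1 to 4 and at 229, 335, 349.6 and 218 CPM in controls 1 to 4. Every mutant was below every control. Its log2 fold change was -0.65 (SE 0.17) and it did not pass over all genes tested (edgeR adjusted p = 0.381). The ratio of Igf2 to H19 counts was 3.69, 4.95, 3.57 and 4.50 in mutants and 2.61, 3.11, 2.63 and 2.58 in controls, so that it was higher in each mutant. This ratio was formed after the values were seen and was not tested. Controls 2 and 3, with the highest Igf2 among the controls, also had the highest H19.

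**Figure D2:**
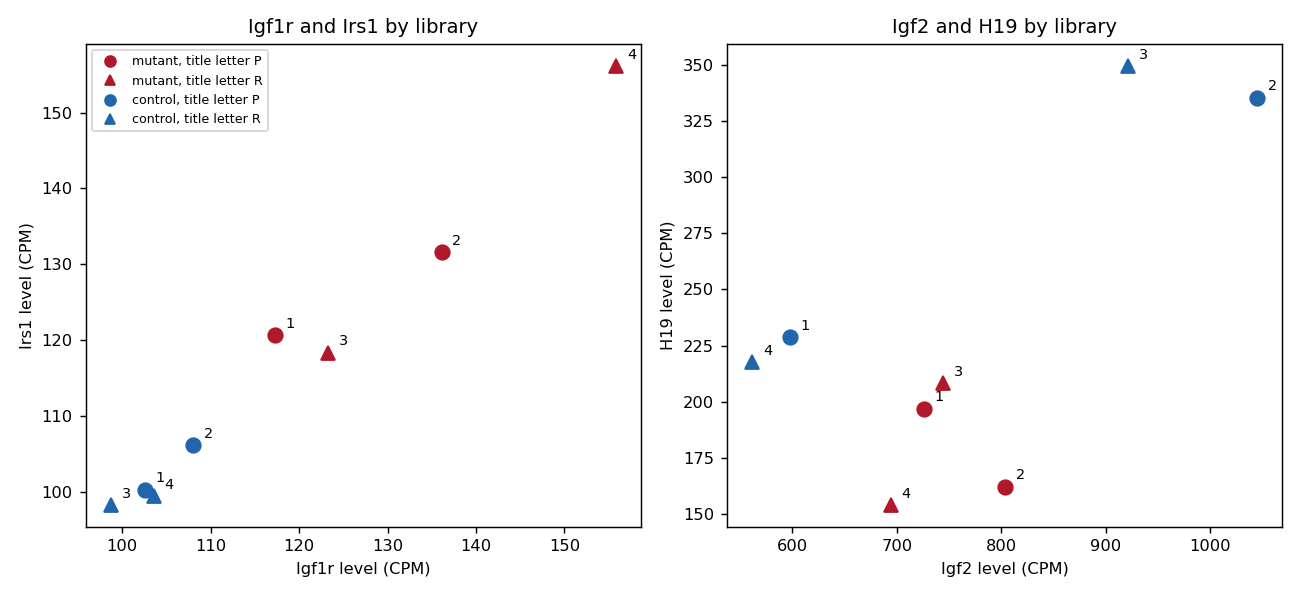
Levels in CPM of Igf1r against Irs1 (left) and of Igf2 against H19 (right), with 1 point per library, red for mutants and blue for controls, numbered by replicate. Igf1r and Irs1 climb together with mutant 4 at the top of both, while the mutants lie below the controls in H19 at Igf2 levels inside the control range.

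Igf1, the ligand most tied to postnatal growth, was near its control level in 3 mutants and high in the fourth. It was at 59.4, 34.3, 37.7 and 38.3 CPM in mutants 1 to 4 and at 40.5, 48.2, 38.6 and 40.1 CPM in controls 1 to 4. Mutant 1 was the highest of all 8 libraries, and the other 3 mutants were below every control. The means were 42.5 ± 11.5 CPM in mutants and 41.9 ± 4.34 CPM in controls (SD, n = 4), and the log2 fold change was 0.02 (95% interval -0.35 to 0.39, edgeR adjusted p = 0.968). Without mutant 1 it was -0.20 (edgeR adjusted p = 0.333). Microglia and macrophages, which can make Igf1, had 12 detected markers that summed to 263 CPM in mutant 1, to 182 to 228 CPM in the other mutants and to 211 to 345 CPM in controls. Mutant 1 was also the mutant with the highest Hox sum, 159.6 CPM. The part of either in the Igf1 level was not tested.

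Igf1r, the signalling receptor, was higher in mutants. It was at 117, 136, 123 and 156 CPM in mutants 1 to 4 and at 103, 108, 98.7 and 104 CPM in controls 1 to 4. The lowest mutant lay above the highest control. The means were 133 ± 17.1 CPM in mutants and 103 ± 3.83 CPM in controls (SD, n = 4), 1.29-fold (95% interval 1.10 to 1.51). The log2 fold change was 0.37 (SE 0.10), with an unadjusted p of 0.00416 by edgeR, the rank 137 among 15789 genes, and an adjusted p of 0.381. The letter P libraries alone gave 0.27, those of letter R gave 0.46, and leaving out mutant 4 gave 0.28. Across all alternatives its adjusted p lay between 0.111 with DESeq2 and 0.649.

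Igf2r, the receptor that clears IGF2, had the same order of groups. It was at 70.1, 84.4, 70.5 and 81.8 CPM in mutants 1 to 4 and at 57.9, 63.5, 66.4 and 65.8 CPM in controls 1 to 4. The gap between the lowest mutant and the highest control was small beside the spread within the mutants. The means were 76.7 ± 7.44 CPM in mutants and 63.4 ± 3.90 CPM in controls (SD, n = 4), 1.21-fold (95% interval 1.05 to 1.40), with a log2 fold change of 0.28 (SE 0.09, edgeR unadjusted p = 0.0149, adjusted p = 0.381). The letter P libraries alone gave 0.35 and those of letter R gave 0.20. Airn, the long RNA transcribed antisense across the start of Igf2r, was at 2.34 to 4.34 CPM in mutants and at 1.74 to 2.87 CPM in controls (edgeR adjusted p = 0.586).

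Several marker lists had higher means in mutants, as the receptors had. The sums of precursor, of endothelial and pericyte and of Purkinje cell markers overlapped between the groups. Markers of dividing cells, 12 in all and each detected, summed to 1294, 1265, 1687 and 2217 CPM in mutants 1 to 4 and to 1077 to 1241 CPM in controls. All 12 had a higher mean in mutants, as did all 11 granule cell precursor markers, and 0 of either list passed over all genes. The means were also higher for 11 of 12 choroid plexus markers, 12 of 12 endothelial and pericyte markers and 10 of 10 Purkinje cell markers. They were lower for 12 of 12 microglia and macrophage markers and for 10 of 10 Hox genes. They were also lower for 9 of 10 oligodendrocyte lineage markers and 8 of 12 meningeal markers. Of all genes tested, 8254 of 15789 had a higher mean in mutants. Mutant 4 held the highest Igf1r and the highest sum of dividing cell and precursor markers. The other mutants did not keep that order. Mutant 2 was next in Igf1r, at 136 CPM, with the lowest dividing cell sum of the mutants, 1265 CPM. Mutant 3 had 123 CPM of Igf1r with a dividing cell sum of 1687 CPM. Mutant 2 also held the highest Igf2r and the highest choroid plexus sum. The part of these lists in the receptor levels was not tested.

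The promoters of the receptors are shown because these were the members without overlap between the groups. CG pairs are in capitals. RefSeq's windows for build GRCm38.p6 matched all 10 members in 14 windows, and the 250 bases before each start were read 5′ to 3′ on the gene's strand, at chr7:67952007-67952256 on the plus strand for Igf1r and at chr17:12769707-12769956 on the minus strand for Igf2r.
Igf1r: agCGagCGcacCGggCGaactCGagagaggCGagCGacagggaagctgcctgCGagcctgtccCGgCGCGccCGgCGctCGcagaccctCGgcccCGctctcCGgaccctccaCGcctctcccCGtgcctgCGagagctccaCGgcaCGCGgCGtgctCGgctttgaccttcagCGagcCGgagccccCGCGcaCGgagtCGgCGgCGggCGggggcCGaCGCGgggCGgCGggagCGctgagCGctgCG
Igf2r: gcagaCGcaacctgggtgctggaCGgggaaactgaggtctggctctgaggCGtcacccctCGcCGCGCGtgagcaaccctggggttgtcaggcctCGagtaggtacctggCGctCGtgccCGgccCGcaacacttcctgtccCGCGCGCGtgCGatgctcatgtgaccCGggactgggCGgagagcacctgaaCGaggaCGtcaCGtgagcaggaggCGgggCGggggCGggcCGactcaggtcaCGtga

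The Igf1r window held 42 CG pairs, more than 99.1% of the 32851 windows in the table, and the Igf2r window held 27, more than 91.4%; the median window had 6. Density in CG pairs was not particular to the receptors, since the Igfbp3 window held 32 and the Igfbp7 window 26. The Gli consensus GACCACCCA was found on either strand in 0 of the 14 family windows and in 0.225% of all windows. Its 7 last letters, CCACCCA, were in 0 of the 14 and in 8.11% of all. The GC box GGGGCGGGG was in the Igf2r window and in 1 window each of Igf2 and Igfbp2, and in 10.4% of all windows. These are matches of letters only, and the build differs from mm9, which the submitters' processing notes name.

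In the exon bins the receptor levels were higher along most of each gene. Igf1r has 21 bins, of which 20 had a higher mean in mutants, and Igf2r has 48, of which 48 did. The ratio of mutant to control mean had a median of 1.26 over the Igf1r bins and of 1.21 over the Igf2r bins. Groups did not overlap in 9 bins of each receptor, all with mutants higher, among 104 tested bins of the family, where no other member had such a bin; over all 152302 tested bins the share was 2.48%. Mutants were lower without overlap in 0 of the 104, where 2.51% of all bins were. Neighbouring bins share reads and transcripts, so these counts restate the gene level and are no further replicates of it.

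The ratio was not even along Igf1r. It was 1.31 to 1.48 in bins 8 to 14. The last bin, 21, which held about 48.8% of the Igf1r bin counts in either group, had a ratio of 1.26, and bin 17 had one of 0.956. The bins beside bin 17 were also low, with ratios of 1.08 in bin 16 and 1.06 in bin 18. Bin 17 held 1.703 ± 0.075% of Igf1r bin counts in mutants and 2.26 ± 0.14% in controls (SD, n = 4). It had the smallest p of all family bins in the test of bin use (edgeR diffSpliceDGE unadjusted p = 0.0522, adjusted p = 0.99999). Of the 104 family bins, 0 passed, and 0 had an unadjusted p under 0.05, where 0.0118% and 0.343% of all bins did. If bin use differed nowhere, a share near 0.05 would be expected at that p, so p-values of this test were too large in general. Its lack of calls thus does not show that bin use was alike.

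**Figure D3:**
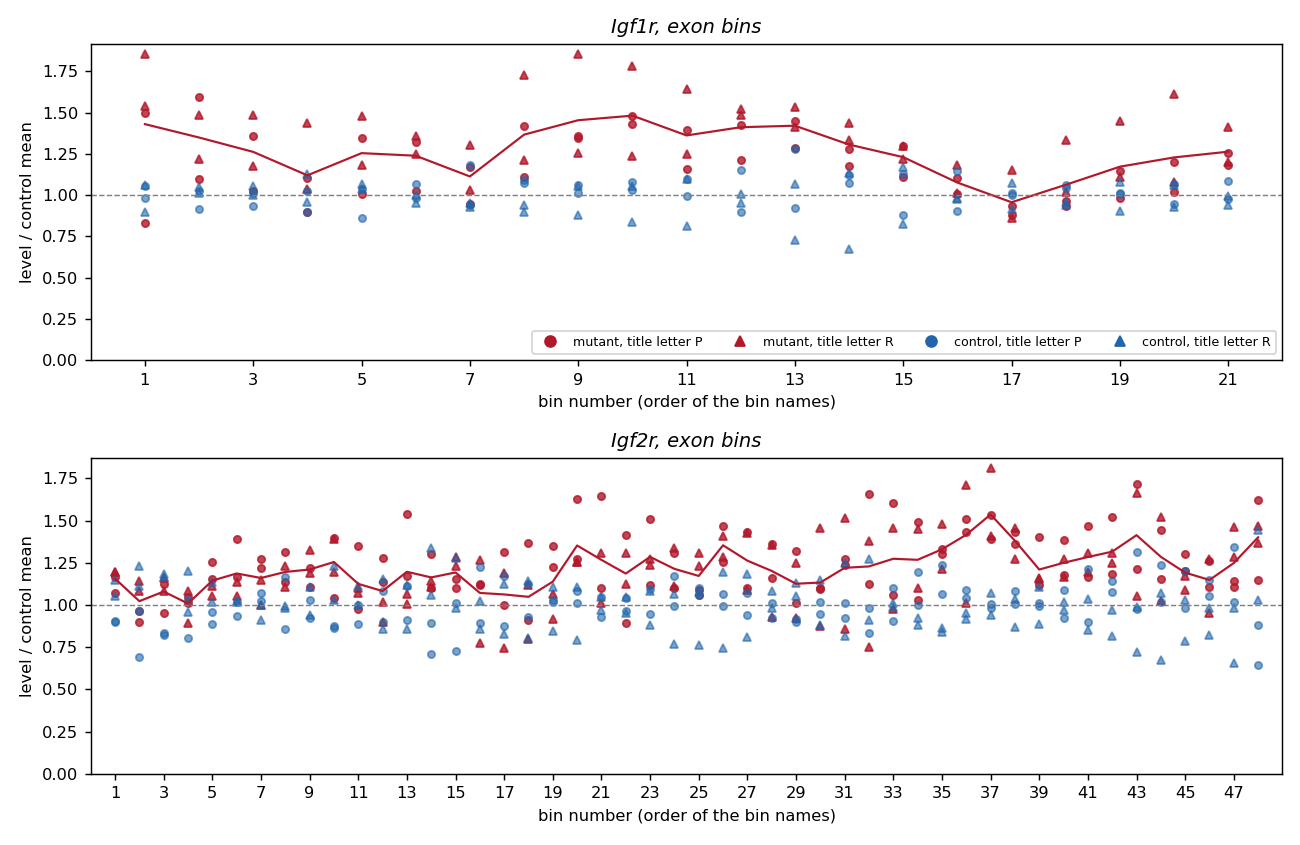
Level of each exon bin of Igf1r (21 bins, top) and Igf2r (48 bins, bottom) in every library, divided by the control mean of the bin (y axis, from 0), against the bin number; the line is the mutant mean. The mutant mean lies above 1 in all bins but Igf1r bin 17, at 0.956.

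No difference in bin use was detected in the other members either. Igf2 counts were concentrated in bin 1, with 81.5 ± 3.33% of its bin counts in mutants and 81.1 ± 1.88% in controls, and bin 6 had 0 counts in all 8 libraries. Igf1 had 81.1 ± 1.57% in bin 7 in mutants and 79.4 ± 3.97% in controls, and bins 2, 5 and 6, each under 1% of its counts, were too low to test. The smallest unadjusted p was 0.302 for Igf1, in bin 4, and 0.777 for Igf2, in bin 5. Bins were scaled apart from genes, to TMM-scaled sizes of the bin counts, so signs near 0 can differ from the gene level: all 4 Igfbp5 bins had a lower mean in mutants.

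The binding proteins overlapped between the groups, with means higher in mutants for Igfbp2, Igfbp4, Igfbp5 and Igfbp7 and lower for Igfbp3 and Igfbp6. Their log2 fold changes lay between -0.28 and 0.37, and the smallest edgeR adjusted p was 0.403, that of Igfbp3. Igfbp3, the main carrier of IGFs in serum, was at 23.4, 32.4, 25.7 and 20.3 CPM in mutants 1 to 4 and at 30.01, 30.4, 31.0 and 32.0 CPM in controls 1 to 4. Controls were tightly grouped, 3 mutants lay below them and mutant 2 lay above them. The means were 25.4 ± 5.11 CPM in mutants and 30.8 ± 0.88 CPM in controls (SD, n = 4), a log2 fold change of -0.28 (SE 0.13, 95% interval -0.58 to 0.02). Without mutant 2 it was -0.43, and without mutant 4 it was -0.19. Markers of the oligodendrocyte lineage, 10 in all and each detected, had a lower mean in mutants for 9 of 10. They summed to 1254, 1020, 1158 and 647 CPM in mutants 1 to 4 and to 1886, 1585, 1349 and 1255 CPM in controls 1 to 4. Mutant 2, with the highest Igfbp3, had a lower sum than mutants 1 and 3. The sum fell from control 1 to control 4, while Igfbp3 stayed at 30.01 to 32.0 CPM there. The part of these markers in the Igfbp3 level was not tested.

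Igfbp7, a binding protein of low IGF affinity made by blood vessel cells, was higher in the letter R libraries of either genotype, which was not tested. It was at 22.6, 38.1, 53.2 and 54.0 CPM in mutants 1 to 4 and at 27.4, 27.2, 38.2 and 37.7 CPM in controls 1 to 4. The libraries with letter R, mutants 3 and 4 and controls 3 and 4, were higher than the others, except that mutant 2 reached the level of the R controls. Its means were 42.0 ± 14.9 CPM in mutants and 32.6 ± 6.13 CPM in controls (SD, n = 4), a log2 fold change of 0.37 (SE 0.25, edgeR adjusted p = 0.509). It was 0.15 within letter P and 0.50 within R, 0.22 without mutant 4, 0.23 without mutant 3 and 0.56 without mutant 1. The 12 endothelial and pericyte markers, all detected, summed to 357, 504, 482 and 498 CPM in mutants 1 to 4. In controls 1 to 4 they summed to 318, 376, 390 and 381 CPM. Mutant 1 was the lowest mutant there too, but mutant 2 was the highest, with Igfbp7 below that of mutants 3 and 4. Controls 2 and 4 had similar sums with Igfbp7 at 27.2 and 37.7 CPM. The part of these markers in the Igfbp7 level was not tested.

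Igfbp4, which restrains IGF action until the protease PAPP-A cuts it, followed a like order. It was at 86.3, 123, 145 and 128 CPM in mutants 1 to 4 and at 82.2, 99.1, 119.5 and 106 CPM in controls 1 to 4. Mutants 2, 3 and 4 were above every control and mutant 1 was above control 1 alone. The log2 fold change was 0.25 (SE 0.16, edgeR adjusted p = 0.498), and 0.14 without mutant 3.

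Igfbp2, a binding protein of the developing brain and choroid plexus, had fold changes of opposite sign in the title letters, a difference that did not pass. It was at 210.3, 251, 345 and 296 CPM in mutants 1 to 4 and at 238, 297, 286 and 258 CPM in controls 1 to 4. Over all libraries the log2 fold change was 0.03 (95% interval -0.30 to 0.36), but it was -0.21 within letter P and 0.23 within R. The test of that difference gave an unadjusted p of 0.0476 and an adjusted p of 0.217 by edgeR. Of the 10 members, 0 passed this test of interaction between genotype and letter, which 3.20% of all genes tested passed.

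Igfbp5, a binding protein made in the developing brain and skeleton, was at 483, 465, 419 and 475 CPM in mutants 1 to 4 and at 429, 453, 469 and 469 CPM in controls 1 to 4. The groups overlapped, and the 95% interval of its log2 fold change, 0.02, ran from -0.19 to 0.22. Igfbp6, which prefers IGF2 over IGF1, was the member with the fewest reads, at 36 to 85 counts in mutants and 40 to 117 counts in controls. It was at 1.57, 2.66, 3.76 and 2.42 CPM in mutants 1 to 4 and at 1.55, 4.57, 4.34 and 2.07 CPM in controls 1 to 4. Controls 2 and 3 were high, as they were for Igf2 and the meningeal markers, and the 95% interval of the log2 fold change, -0.27, ran from -1.08 to 0.54.

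**Figure D4:**
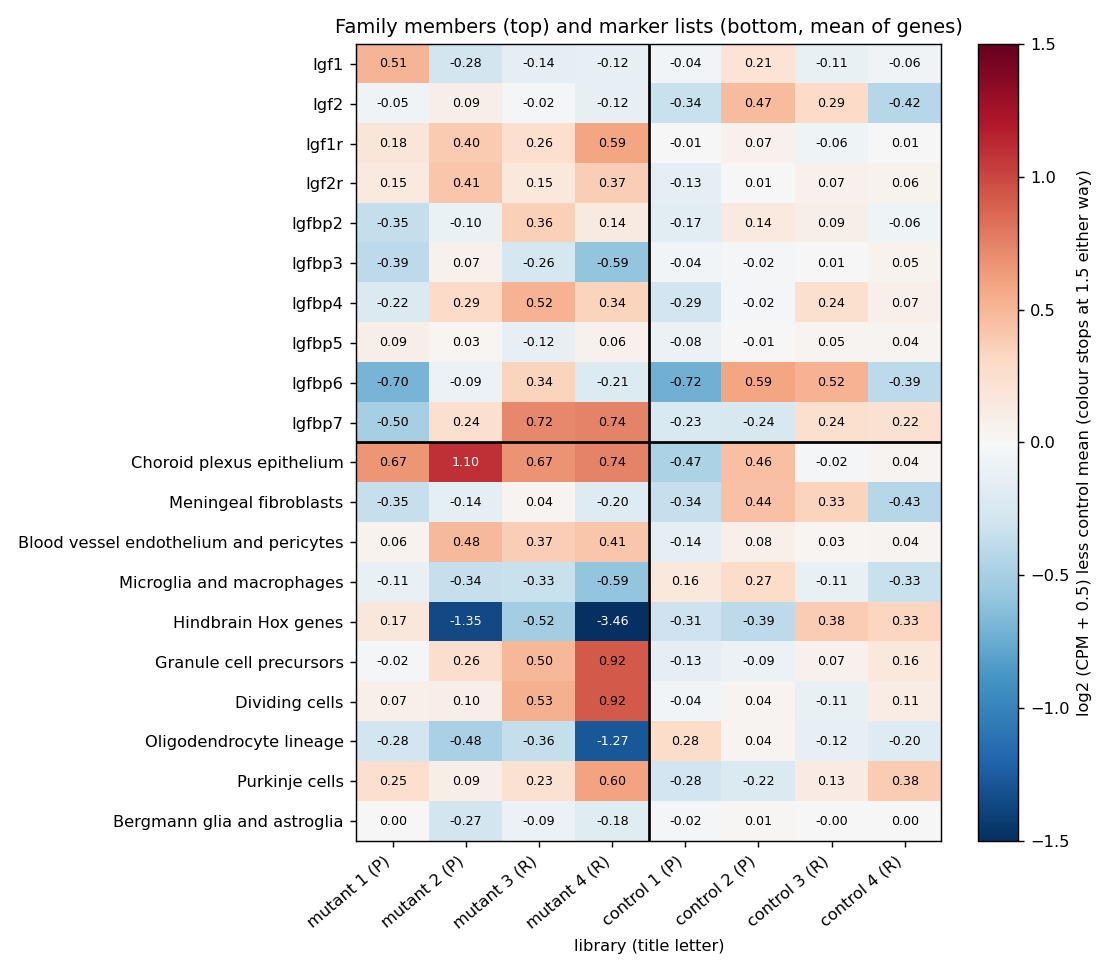
Each library (columns, mutants left) for the 10 family members (top) and the mean of each marker list (bottom), as log2 of CPM plus 0.5 less the control mean. Igf2 and Igfbp6 are high in controls 2 and 3 together with the meningeal list, and Igf1r is highest in mutant 4, whose Hox value is -3.46.

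Some members tracked other named genes across the 8 libraries, given as Pearson's r of log2 CPM with no test, since the genes were picked as the 3 highest of 12526 for each member (12527 for Igfbp6). Igf1r was most like Irs1, its own adaptor, at r = 0.99, which was 0.96 without mutants 2 and 4, the libraries farthest from its median. Next were 2610015P09Rik and Pkd2, both at 0.99. Igf2r was most like Atf7 at 0.98, Peak1 at 0.97 and Wdr60 at 0.97, and the receptors had an r of 0.88 with each other. Since both receptors were higher in mutants, genes that were also higher in mutants tend to score high with them.

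For Igf2 and 4 of the binding proteins the most similar genes were as follows. Igf2 was most like Thsd4 at 0.98, Crispld2 at 0.97 and the macrophage receptor gene Mrc1 at 0.96. Igfbp7 was most like Cldn5, a tight junction gene of endothelium, at 0.99, then Map3k11 and Kdm8, both at 0.99. Igfbp6 was most like Gstm2, at 0.96, then Col1a1 and Slc26a2, at 0.95 each, of which Col1a1 is a collagen gene in the meningeal list. Igfbp4 was most like Crtap at 0.99, a gene of collagen modification, Pear1 at 0.97 and Gpr124 at 0.97, an endothelial receptor gene, and Igfbp2 was most like Ifitm3 at 0.98, Prrg2 at 0.97 and Mrps23 at 0.95. Within the family, Igfbp4 and Igfbp7 had an r of 0.91 and Igf2 and Igfbp6 one of 0.80.

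The likeness of the remaining members rested more on single libraries. Igf1 was most like Lin52 at 0.97, which was 0.73 without mutant 1 and control 2. Igfbp3 was most like Pisd at 0.95, which was 0.78 without mutants 1 and 4. It was next like Cspg4, an oligodendrocyte precursor gene, at 0.95, which was 0.73 without the same libraries. Igfbp5 was most like Ppp1r7 at 0.97, which was 0.89 without mutant 3 and control 1.

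Other genes of the pathway were a list of 47, of which 43 were tested, 25 with a higher and 18 with a lower mean in mutants. Of them 0 passed over all genes, and their median log2 fold change was 0.05, against 0.01 over all genes tested. At an unadjusted p under 0.05 there were 5 higher and 3 lower, 8 of 43, where 12.6% of all genes were. The groups did not overlap, with mutants higher, for 2 of the 43, Irs1 and Foxo1, where this held for 3.60% of all genes tested. Mutants were lower without overlap for 3 of the 43, H19, Htra1 and Grb2, where this held for 2.96% of all genes. The 4 not tested were the insulin genes Ins1 and Ins2, Igfbp1 and Igfals, each with at most 13 counts in any library.

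Near the receptor, Irs1, the adaptor that IGF1R phosphorylates, was at 121, 132, 118 and 156 CPM in mutants 1 to 4 and at 100.3, 106, 98.2 and 99.4 CPM in controls 1 to 4. Its log2 fold change was 0.38 (SE 0.10, edgeR unadjusted p = 0.00328, adjusted p = 0.381), or 0.29 without mutant 4. Irs2 had a log2 fold change of 0.06 (SE 0.14). Irs4, at 12.1, 10.1, 4.91 and 1.34 CPM in mutants 1 to 4 and at 9.11 to 11.7 CPM in controls, had one of -0.53 (SE 0.47), which was -0.19 without mutant 4 and -0.93 without mutant 1. The 12 adaptors together had a median of 0.06, with 8 higher and 4 lower in mean and 0 that passed. Foxo1, a transcription factor that AKT keeps out of the nucleus, was at 30.8, 30.7, 28.6 and 34.5 CPM in mutants and at 23.1, 27.6, 25.2 and 25.4 CPM in controls, a log2 fold change of 0.30 (SE 0.10). Over the 16 genes of the kinase cascade, Foxo1 included, the median log2 fold change was 0.02, with 9 higher and 7 lower in mean and 0 that passed. They ranged from -0.15 for Pik3r1 to 0.30 for Foxo1, with Akt2 at 0.27 next to it.

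The 7 proteases of binding proteins and their inhibitors had a median log2 fold change of -0.17, with 2 higher and 5 lower in mean, and the 3 mRNA-binding proteins had one of 0.34, with 3 higher. Of either list 0 passed. Htra1, a secreted protease that can cut IGFBPs, was at 29.7, 33.3, 31.5 and 17.5 CPM in mutants 1 to 4 and at 43.4, 38.5, 41.6 and 39.6 CPM in controls 1 to 4. Every mutant was lower, mutant 4 most of all, with a log2 fold change of -0.54 (SE 0.17) and of -0.38 without mutant 4. Pappa2, a protease of IGFBP5, was at 3.90 to 7.48 CPM in mutants and at 6.67 to 10.4 CPM in controls, with a log2 fold change of -0.61 (SE 0.23). Igf2bp1, which binds Igf2 mRNA in the embryo, was at 13.9, 13.1, 10.4 and 18.2 CPM in mutants and at 8.02, 11.6, 8.09 and 8.07 CPM in controls, a log2 fold change of 0.64 (SE 0.19) and of 0.47 without mutant 4. Control 2 alone reached into the mutant range. None of these 3 passed (edgeR adjusted p = 0.381 for each).

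**Figure D5:**
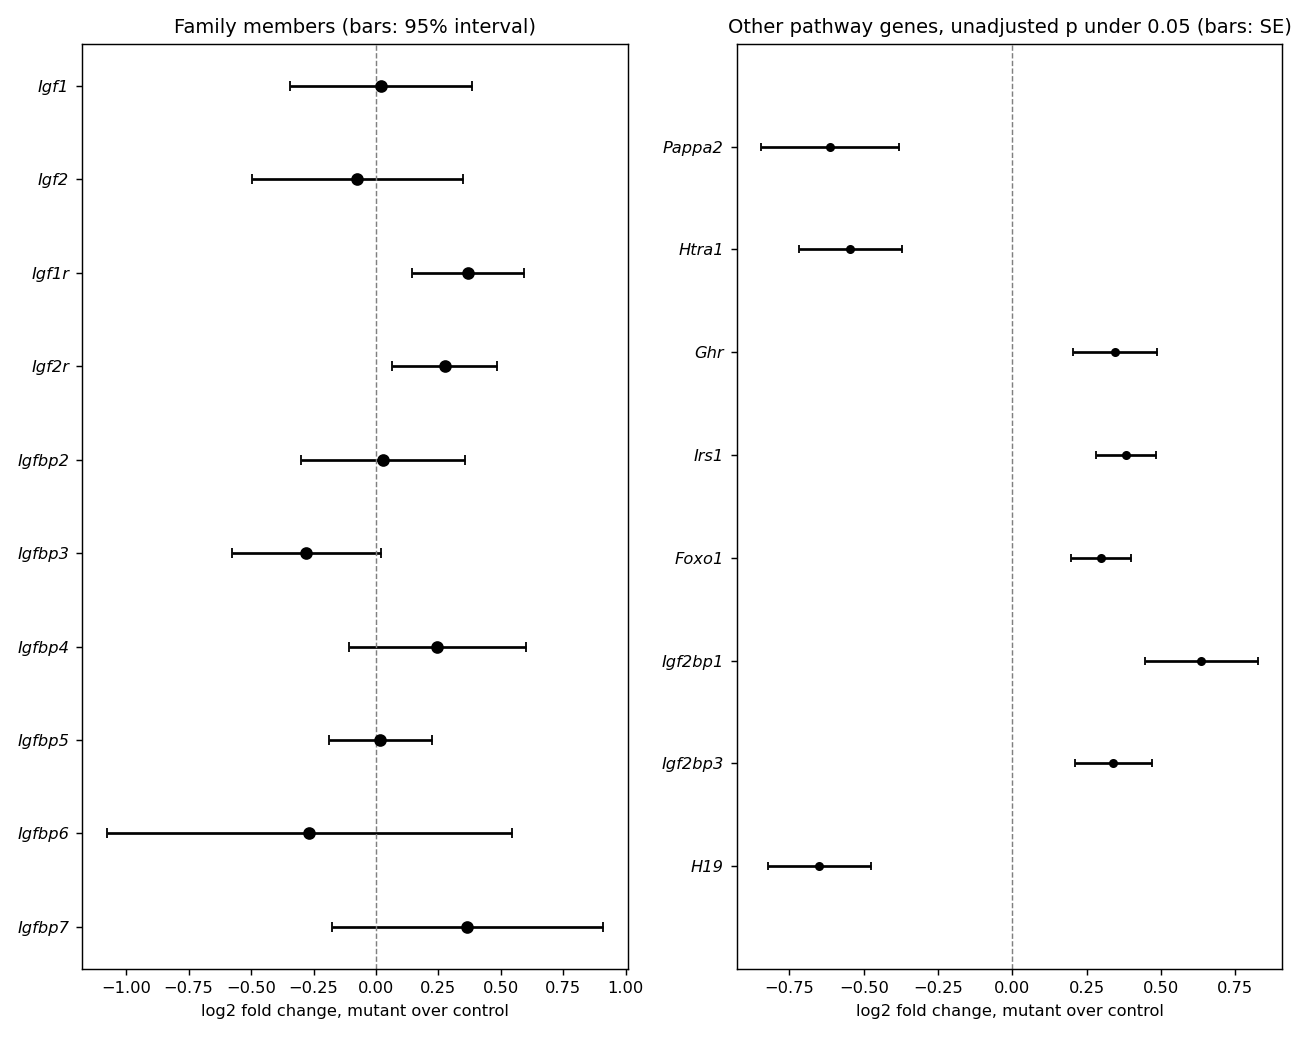
Log2 fold change, mutant over control, of the 10 family members with 95% intervals (left) and of the 8 pathway genes with an unadjusted p under 0.05 with SE (right). The intervals of Igf1r and Igf2r alone lie above 0 among the members, before adjustment over all genes, and H19, at -0.65, is the lowest of the 8 pathway genes.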

How the data were processed

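PolyA libraries (Illumina TruSeq) of TRIzol-extracted RNA were made from single cerebella, per the labels' protocols. The deposited values are raw counts per gene and per exon bin, which the authors had not normalized; TopHat, HTSeq, DESeq2 and build mm9 are named, without versions, in the submitters' processing notes. The 5 summary lines of each gene table, 24.8 to 34.3% of its entries, were left out. The test over genes was that of edgeR 4.0.16, run in R 4.3.3 (quasi-likelihood F test, filterByExpr, TMM factors of 0.986 to 1.01, genotype as the only term, two-sided), with Benjamini-Hochberg adjustment over all genes tested and a threshold of 0.05. CPM are counts on the TMM-scaled sizes. Bins were tested with edgeR's diffSpliceDGE over genes with at least 2 tested bins, and the mutant effect in title letters P and R with an interaction term. DESeq2 1.42.0, other scalings and filters, the title letter as a block and leaving out each library were the alternatives. No library was a copy of another (chi-square over degrees of freedom between libraries of 1 group, 7.42 to 81.0). Each library is 1 pup. The genotype fit, DESeq2, the interaction and the bin test were run on simulated counts with known changes, and the other steps were not. The members and lists were chosen with earlier results of these data known. The rule for names took all members, the 6 other pathway genes with the smallest p since none passed, the 3 genes most like each member among those with a mean of at least 5 CPM, and the bin with the smallest p in each member; Grb2, Irs2, Irs4, Akt2, Pik3r1, Igfbpl1, Ghr, Igf2bp3, Igf2os and Airn and other single genes were named after their values were seen. Replicate numbers follow accession order and pair no samples.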

Additional observations from a re-analysis of the deposited data

Results flagged for a closer look

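Igf1 in mutant 1 stood apart from the other mutants. It was at 59.4 CPM, against 34.3 to 38.3 CPM in mutants 2 to 4 and 38.6 to 48.2 CPM in controls, and its gap to the next mutant made up 0.841 of the whole range of the mutants. Of the 20 groups of 4 libraries examined (10 members in mutants and in controls) this was 1, and chance alone flags about 1 in 20.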

How the results depend on the processing

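None of the 10 members, of the 43 pathway genes or of the 104 member bins was called under any alternative run, and no member's effect was called different between title letters. Of 140 fold changes under 14 alternatives, 12 turned in sign, all on leaving out 1 library and all in the 4 members near 0. Leaving out each library gave log2 fold changes of -0.20 to 0.090 for Igf1, -0.20 to 0.081 for Igf2, -0.097 to 0.13 for Igfbp2 and -0.016 to 0.060 for Igfbp5. The cause was not tested. Igf1r stayed between 0.28 and 0.41 and Igf2r between 0.20 and 0.31. Igfbp6 lay between -0.50 without control 1 and -0.04 without control 2. With the title letter as a block the smallest member adjusted p was 0.216. Counts limit Igfbp6 the most, at 36 to 117 reads per library.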

Other observations

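Igfbpl1, which encodes a protein related to the IGF binding proteins, spread widely among mutants. It was at 87.2, 105, 153 and 198 CPM in mutants 1 to 4 and at 104, 111, 108 and 116 CPM in controls 1 to 4. Mutants 3 and 4 were above every control and mutant 1 was below them, the order in which granule cell precursor markers stood (1275, 1607, 1805 and 2418 CPM in mutants 1 to 4). Its log2 fold change was 0.31 (SE 0.21, edgeR adjusted p = 0.519), and 0.06 without mutant 4.

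Ghr, the growth hormone receptor, was at 17.9 to 23.0 CPM in mutants and at 12.8 to 19.3 CPM in controls, with a log2 fold change of 0.35 (SE 0.14, edgeR adjusted p = 0.387). Igf2bp3, a relative of Igf2bp1, was at 28.3, 31.7, 25.0 and 37.9 CPM in mutants 1 to 4 and at 23.2, 25.2, 23.0 and 25.8 CPM in controls 1 to 4. Mutant 3 was inside the control range and the other mutants were above it (log2 fold change 0.34, SE 0.13, edgeR adjusted p = 0.381). Without mutant 4 it was 0.22.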
